A study of Mus musculus with 6 samples.

Results

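The Pmp22 family as taken here comprises 5 small proteins that cross the membrane 4 times: Pmp22, the epithelial membrane proteins Emp1, Emp2 and Emp3, and Perp. The members were named by family and each was read by its single-symbol probe set, where several exist the one selected on the highest mean over the 6 arrays. All 5 genes were found among 19938 genes, each on 1 probe set, so that no choice between probe sets was needed. The family was taken up with the Prmt6 effect on Pmp22 and Perp already known, and the member differences below are therefore given as a description, without p-values.

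The samples were HM1 mouse embryonic stem (ES) cells, an established line, carrying the puromycin vector pCAGIP.puro either empty (control, 3 arrays) or with mouse Prmt6 cloned into it (Prmt6 overexpression, 3 arrays). Transfection was by lipofection in both groups, puromycin selection (1 ug/ml) lasted 3 days, and the medium held 15% fetal bovine serum and 1000 U/ml of LIF, a cytokine that keeps these cells undifferentiated. Prmt6 is an arginine methyltransferase that acts on histones. The titles number the replicates but do not say that they are separate cultures, so the spread between arrays may be technical. Each group is a selected population whose share of expressing cells is not given in the sources used here.

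Proteins of this family lie in the plasma membrane and share a fold with the claudins of tight junctions. Pmp22 is a component of the compact myelin that Schwann cells lay around peripheral axons, is made in many epithelia and fibroblasts too, and is known as a growth-arrest-specific transcript. Changes in the dose of the human gene cause inherited neuropathies. Emp1, Emp2 and Emp3 are its closest relatives, widely made in epithelia and other tissues, and Emp2 is known for its effect on integrins and caveolins. Perp is a target of p53 and a component of desmosomes in stratified epithelia.

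Because the members differed between groups in the same direction, the 250 bases before annotated transcription starts were read from RefSeq (GRCm38.p6), which gave 9 windows for 4 of the 5 members and none for Perp. Short motifs were searched on both strands; the AP-1 motif TGANTCA, the TEAD motif GGAATG, the E-box CACCTG and the GC box GGGCGG are written here in full, while the CArG box is given by name. One window is shown for each of the 4 genes, with the most upstream start of each gene in this table, since the array does not separate transcripts by start. Capitals mark every motif match.
Pmp22, chr11:63128732-63128981, plus strand: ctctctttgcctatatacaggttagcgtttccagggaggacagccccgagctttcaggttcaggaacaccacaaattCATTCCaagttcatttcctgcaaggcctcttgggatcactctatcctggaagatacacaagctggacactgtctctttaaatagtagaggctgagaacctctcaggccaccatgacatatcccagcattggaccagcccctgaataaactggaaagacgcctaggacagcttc
Emp1, chr6:135362681-135362930, plus strand: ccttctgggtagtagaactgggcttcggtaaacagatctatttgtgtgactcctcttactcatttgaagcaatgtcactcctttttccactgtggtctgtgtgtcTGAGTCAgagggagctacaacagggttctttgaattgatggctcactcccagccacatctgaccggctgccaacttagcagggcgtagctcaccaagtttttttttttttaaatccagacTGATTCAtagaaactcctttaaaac
Emp2, chr16:10313969-10314218, minus strand: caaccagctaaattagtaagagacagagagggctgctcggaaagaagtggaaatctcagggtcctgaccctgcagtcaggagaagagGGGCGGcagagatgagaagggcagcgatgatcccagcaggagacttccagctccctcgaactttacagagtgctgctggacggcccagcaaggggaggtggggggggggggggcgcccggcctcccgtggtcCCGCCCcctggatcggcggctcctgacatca
Emp3, chr7:45921427-45921676, minus strand: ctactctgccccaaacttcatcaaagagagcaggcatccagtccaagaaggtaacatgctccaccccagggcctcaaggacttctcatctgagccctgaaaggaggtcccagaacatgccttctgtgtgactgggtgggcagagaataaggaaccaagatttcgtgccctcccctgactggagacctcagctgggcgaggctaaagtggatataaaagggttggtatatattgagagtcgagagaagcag

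The shown Pmp22 window held 1 TEAD match, beginning 173 bases before the start on the reverse strand. The shown Emp1 window held 2 AP-1 matches, beginning 145 and 25 bases before the start. The Emp2 window held 2 GC boxes, and the Emp3 window shown held no match to any of the motifs. Of 32851 windows of the same length in the table, 6.75% held the AP-1 motif, 12.6% the TEAD motif, 17.2% the E-box, 32.7% the GC box and 1.47% the CArG box. Matches did not overlap in the 4 windows shown. In the other 3 Pmp22 windows only GC boxes were found, 3 in each of 2 windows with 2 of them overlapping each time, and the second windows of Emp1 and Emp3 held no match. No E-box or CArG match was found in any of the 9 windows, so that no motif was found in all 4 genes. These are letter matches in a window and were not tied to the expression values.

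All 5 members gave higher signals in the Prmt6 overexpression arrays than in control, from 1.54-fold for Emp2 to 12.2-fold for Pmp22. Each passed the threshold of 0.05 for p adjusted over all genes with limma, and 7.05% of all genes were called higher in this comparison and 3.25% lower. In each member the 3 overexpression arrays lay above the 3 control arrays, as they did in 17.0% of all genes. The family was known to move before it was taken up, so nothing is read from these shares. The family's median difference was 1.67 on the log2 scale, against 0 over all genes. In RNA from whole cultures, more expressing cells and more RNA per cell cannot be told apart.

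Pmp22 read 6.37, 6.93 and 6.64 in control replicates 1, 2 and 3 and 10.34, 10.14 and 10.29 in overexpression replicates 1, 2 and 3 (RMA log2 signal). The lowest overexpression array lay 3.21 above the highest control array. The difference was 3.61 ± 0.14 (log2, SE, n = 3 per group), or 12.2-fold, with a 95% interval from 3.30 to 3.92. By size of rise Pmp22 ranked 2 among the 19938 genes.

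The control arrays of Pmp22 were unusually spread. Their SD of 0.28 was at percentile 97.4 of all genes, whose median control SD was 0.082. Replicate 1 lay 0.28 below the control mean and replicate 2 lay 0.28 above it. The overexpression arrays had an SD of 0.10, close to the median of 0.12. Without control replicate 1 the difference was at its smallest and without control replicate 2 at its largest, 3.47 and 3.75.

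Emp1, first described as a tumour-associated membrane protein, was the next largest. It read 7.15, 7.19 and 7.11 in control and 8.85, 8.96 and 8.93 in overexpression. Arrays of 1 group lay within 0.08 of each other in control and within 0.11 in overexpression, and the groups were 1.66 apart at their nearest. The difference was 1.76 ± 0.070 (log2, SE, n = 3 per group), or 3.39-fold, with a 95% interval from 1.60 to 1.92.

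Emp3, made in several non-epithelial tissues as well, read 6.31, 6.26 and 6.19 in control and 7.98, 7.94 and 7.84 in overexpression. In both groups replicate 1 was the highest and replicate 3 the lowest, by 0.12 and 0.14, while the gap between the groups was 1.53. The difference of 1.67 ± 0.075 (log2, SE, n = 3 per group), or 3.17-fold, had a 95% interval from 1.496 to 1.84.

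Perp read 8.69, 8.64 and 8.62 in control and 9.67, 9.66 and 9.66 in overexpression. These overexpression values lay within 0.01 of each other, the step to which the deposited values are rounded, and an SD as small as theirs (0.0058) was seen in 0.371% of genes. The difference was 1.01 ± 0.066 (log2, SE, n = 3 per group), or 2.02-fold, with a 95% interval from 0.86 to 1.16. The mean of Perp over all 6 arrays, which includes this rise, was at percentile 92.6 of the gene means.

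Emp2 had the smallest difference of the family. It read 5.39, 5.64 and 5.49 in control and 6.16, 6.11 and 6.12 in overexpression, so that the groups were 0.47 apart at their nearest. The difference was 0.62 ± 0.082 (log2, SE, n = 3 per group), or 1.54-fold, with a 95% interval from 0.43 to 0.81. Its mean signal over the arrays was at percentile 49.1 of genes. As for Pmp22, control replicate 1 was its lowest array and control replicate 2 the highest of the control group.

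**Figure D1:**
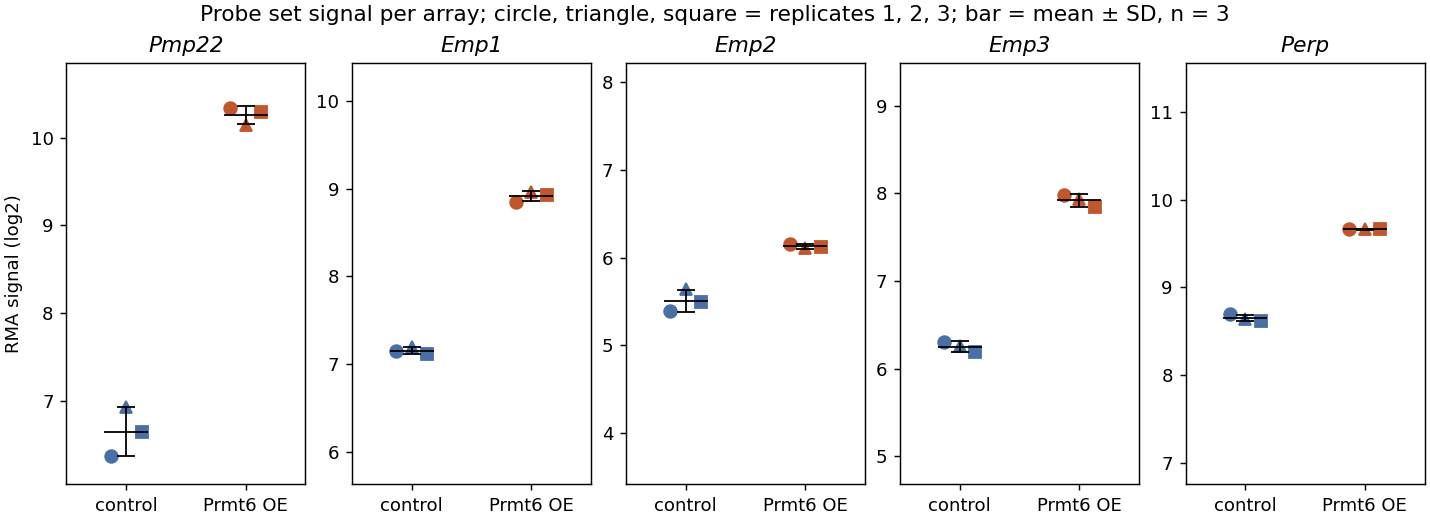
RMA signal (log2, vertical axis) of each member in the 3 control and 3 Prmt6 overexpression arrays, with the group mean and SD; every panel spans the same number of log2 units. The groups are separate in all 5 panels, by 3.21 at the nearest for Pmp22 and by 0.47 for Emp2, and the spread of the Pmp22 control arrays (SD 0.28) is the widest.

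The signals of the members did not move by the same amount. Differences between the members' changes were computed within arrays for all 10 pairs, which cancels any offset of an array. The change of Pmp22 exceeded that of Emp1 by 1.85 ± 0.18, of Emp3 by 1.94 ± 0.19, of Perp by 2.60 ± 0.19 and of Emp2 by 2.99 ± 0.10 (log2, SE, n = 3 per group). The change of Emp1 exceeded that of Emp2 by 1.14 ± 0.078 and that of Perp by 0.75 ± 0.045.

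Emp1 and Emp3 had the closest changes of the 10 pairs. Emp1 minus Emp3 was 0.84, 0.93 and 0.92 in control and 0.87, 1.02 and 1.09 in overexpression, a difference of 0.097 ± 0.071 that was not separated from 0 by the spread between arrays. The order of the changes in signal was therefore Pmp22, then Emp1 and Emp3 without separation, then Perp, then Emp2. Each member was read on its own probe set, and how strongly each probe set responds to its RNA was not tested. With 3 arrays against 3, an exact permutation test of a single pair cannot give a two-sided p below 0.1, and since these pairs were examined with the changes known, none is given.

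**Figure D2:**
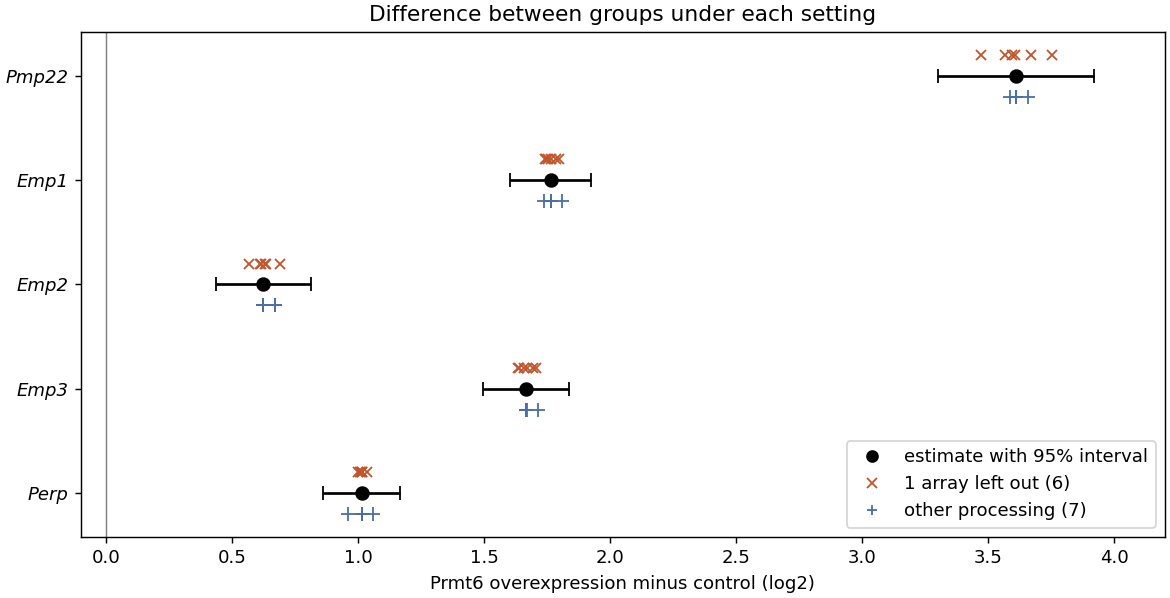
Difference between Prmt6 overexpression and control (log2, horizontal axis) for each member, with its 95% interval, the 6 values with 1 array left out and the 7 values under other processing. The intervals of Emp1 (1.60 to 1.92) and Emp3 (1.496 to 1.84) overlap, those of Pmp22, Perp and Emp2 are apart from them and from each other, and the lowest value of any alternative is 0.565, for Emp2.

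Only 1 gene rose by more than Pmp22, and its 5 nearest profiles were all smaller rises. Likeness was measured as the root-mean-square difference of the 6 array values after subtracting each gene's control mean, over all 19938 genes without predicted ones. The nearest to Pmp22 were the actin-associated smooth muscle gene Tagln (0.28), the simple-epithelial keratin Krt18 (0.33), the cyclooxygenase Ptgs2 (0.45), the annexin Anxa5 (0.51) and the actin-severing Gsn (0.52). The closest of them, Tagln, changed by 3.29 ± 0.078 against 3.61 for Pmp22.

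The neighbours of Emp1 and Emp3 were closer. Those of Emp1 were Nnat, an imprinted proteolipid gene (0.033), Bmp1, a procollagen protease (0.071), the tropomyosin Tpm1 (0.073), Glipr2 (0.074) and the cytokine receptor Tnfrsf12a (0.096). Those of Emp3 were the intermediate filament Vim (0.069), Tnfrsf12a (0.070), Glipr2 (0.072), Tpm1 (0.073) and Amot, angiomotin (0.075). The lists of Emp1 and Emp3 shared 3 of 5 genes, and the distance between Emp1 and Emp3 themselves was 0.098. Those of Perp were Pdlim7, a LIM protein of actin fibres (0.031), Pcolce, which enhances procollagen cleavage (0.040), the integrin chain Itgav (0.046), Tceal9 (0.050) and the transcription factor Hand1 (0.053). These distances rest on 6 arrays of 2 groups, so they mainly compare the size of the change.

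**Figure D3:**
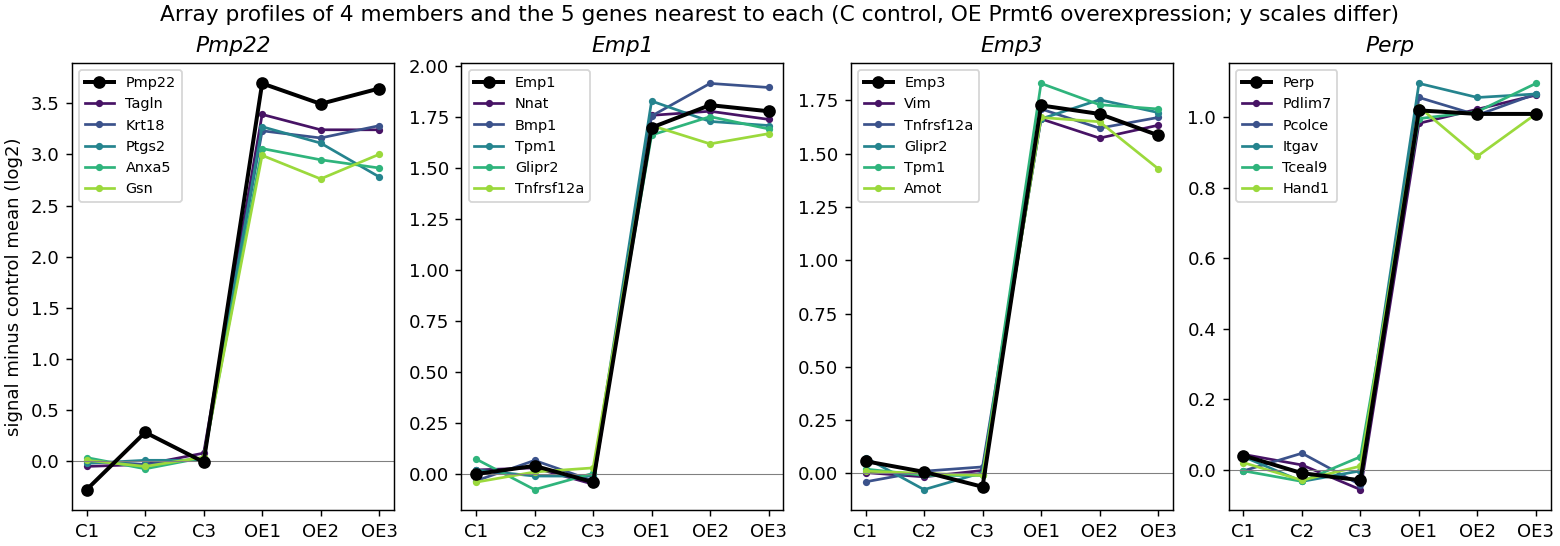
Signal minus the control mean (log2, vertical axis) over the 3 control (C) and 3 Prmt6 overexpression (OE) arrays for Pmp22, Emp1, Emp3 and Perp (black) and the 5 genes nearest to each. Pmp22 lies above its neighbours in the overexpression arrays, while the neighbours of Emp1, Emp3 and Perp lie close around them.

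Most genes of the wider superfamily did not pass the test. Of 42 measured genes for claudins, calcium channel gamma subunits, clarins and other relatives, 3 rose, 1 fell and 38 did not pass. The share that rose, 7.14%, was close to the 7.05% of all genes. The median was -0.042 on the log2 scale, and it was 0.005 with arrays centred on their medians and 0.012 after quantile normalization. The 5 members of the family as taken here ranged from 0.62 to 3.61. Lim2 and Tmem47 were counted with the relatives, and Lim2 was at -0.080 without passing.

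The 3 rises were claudins of epithelial tight junctions. Cldn4 rose 2.82-fold, from 8.72 ± 0.062 to 10.21 ± 0.046 (log2, SD, n = 3, limma adjusted p = 7.10e-06). Cldn6 rose 2.38-fold (1.25 ± 0.088, limma adjusted p = 5.79e-05) and Cldn7 rose 1.45-fold (0.53 ± 0.085, limma adjusted p = 0.00546). Tmem47, a relative found at cell junctions, fell by 0.32 (SE 0.069, limma adjusted p = 0.0217), and its call ended with the replicate block (0.0695), without any array but overexpression replicate 1 (0.0524 to 0.0944) and with every probe set tested (0.0503). Of the relatives, 18 of 42 had a mean signal under the 30th percentile of genes, whereas none of the 5 members did.

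Several membrane partners reported for Pmp22 and the Emp proteins rose. Of 13 measured genes for integrin chains, caveolins, kinases and trafficking factors, 7 rose and 6 did not pass (median 0.52), where 7.05% of all genes rose and the median over all genes was 0. Cav1, the main coat protein of caveolae, rose 3.16-fold, reading 4.83, 4.94 and 4.42 in control and 6.22, 6.45 and 6.50 in overexpression (limma adjusted p = 0.000161). Its partner Cav2 rose by 0.67 ± 0.16 (limma adjusted p = 0.0363), a call that ended without any 1 array except control replicate 1 (0.0540 to 0.113) and with every probe set tested (0.109). The mean signal of Cav2 was at percentile 19.8 of genes, so the filter at the 30th percentile left it out.

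Of the 5 integrin chains on the list, 4 rose. Itgav, which pairs with Itgb3, rose by 1.07 ± 0.067 (limma adjusted p = 2.67e-05), and the common beta chain Itgb1 by 0.83 ± 0.087 (limma adjusted p = 0.000575). Itga6, a laminin receptor chain that Pmp22 is known to associate with, read 8.47, 8.53 and 8.51 in control and 9.12, 9.11 and 8.94 in overexpression, a rise of 0.55 ± 0.077 (limma adjusted p = 0.00264). Its partner chain Itgb4 was at 0.077 ± 0.077 (limma adjusted p = 0.608), with overlapping arrays. Src and Itgb3 rose by 0.58 and 0.52 (limma adjusted p = 0.00168 and 0.0229). Of the partner list, 5 or 6 genes passed with 1 array left out, and 5 to 9 when other processing is included, against 7.

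The ATP-gated channel P2rx7, a binding partner of the Emp proteins, was at 0.26 ± 0.081 without passing (limma adjusted p = 0.0818). It passed with dim genes left out (0.0380), with arrays centred on medians (0.0422) and after quantile normalization (0.0426). Canx, the chaperone that retains misfolded Pmp22 in the endoplasmic reticulum, was at -0.0067 ± 0.069 (limma adjusted p = 0.971). Rer1, a sorting receptor reported to do the same, was at 0.24 ± 0.074 (limma adjusted p = 0.0831).

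Perp was higher in arrays where some other desmosome genes were higher and some were not. Of 12 measured genes for desmosome components and the p53 family, 6 rose, 1 fell and 5 did not pass (median 0.17), where 7.05% of all genes rose. With 1 array left out or under other processing, 5 to 7 of the 12 passed, rises and falls together. All 6 rises were among the 9 measured desmosome components. The plaque linker Dsp rose 4.18-fold, from 6.61 ± 0.13 to 8.67 ± 0.11 (log2, SD, n = 3, limma adjusted p = 5.35e-06). The cadherin Dsc2 rose 2.82-fold and the plakophilin Pkp2 1.84-fold. Jup, Dsg2 and Pkp3 rose by 0.51, 0.40 and 0.30 (limma adjusted p = 0.00562, 0.0104 and 0.0297). The other 3, Dsc3, Pkp1 and Pkp4, were at 0.020, -0.11 and -0.20 without passing, and the overexpression arrays of Pkp4 all lay below its control arrays.

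Trp63 and Trp73 were the p53 family members read here. Trp63, the family member that controls Perp in stratified epithelium, was at -0.13 ± 0.10 (limma adjusted p = 0.513), and Trp73 fell by 0.47 (SE 0.077, limma adjusted p = 0.00619). Mdm2, a p53 target, was at 0.043 ± 0.069 (limma adjusted p = 0.768).

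Most other genes of myelin and Schwann cells did not pass. Of 11 other myelin genes, 1 rose, 1 fell and 9 did not pass (median 0.093), where 7.05% of all genes rose and 3.25% fell. Mal, a raft proteolipid of myelin and epithelia, rose 2.05-fold (1.03 ± 0.087, limma adjusted p = 0.000164). Pllp, another such proteolipid, fell by 0.31 (SE 0.081, limma adjusted p = 0.0484), and its call ended without any 1 array (0.0555 to 0.166), with the replicate block (0.0812), under both rescalings (0.0694 and 0.0584) and with every probe set tested (0.103). Mbp, a major myelin protein, was at 0.37 ± 0.12 (limma adjusted p = 0.0825).

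Of 12 Schwann lineage genes, 0 passed with limma, and 3 had an unadjusted p under 0.05. Their mean signal was 5.40 to 5.52 in control and 5.44 to 5.56 with the Prmt6 plasmid. The lineage regulators Sox10 and Egr2, both known to drive Pmp22 in Schwann cells, were at 0.12 ± 0.14 and 0.023 ± 0.084 (limma adjusted p = 0.669 and 0.905). Both had overlapping arrays, and both signs turned without overexpression replicate 3 (-0.028 and -0.047).

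**Figure D4:**
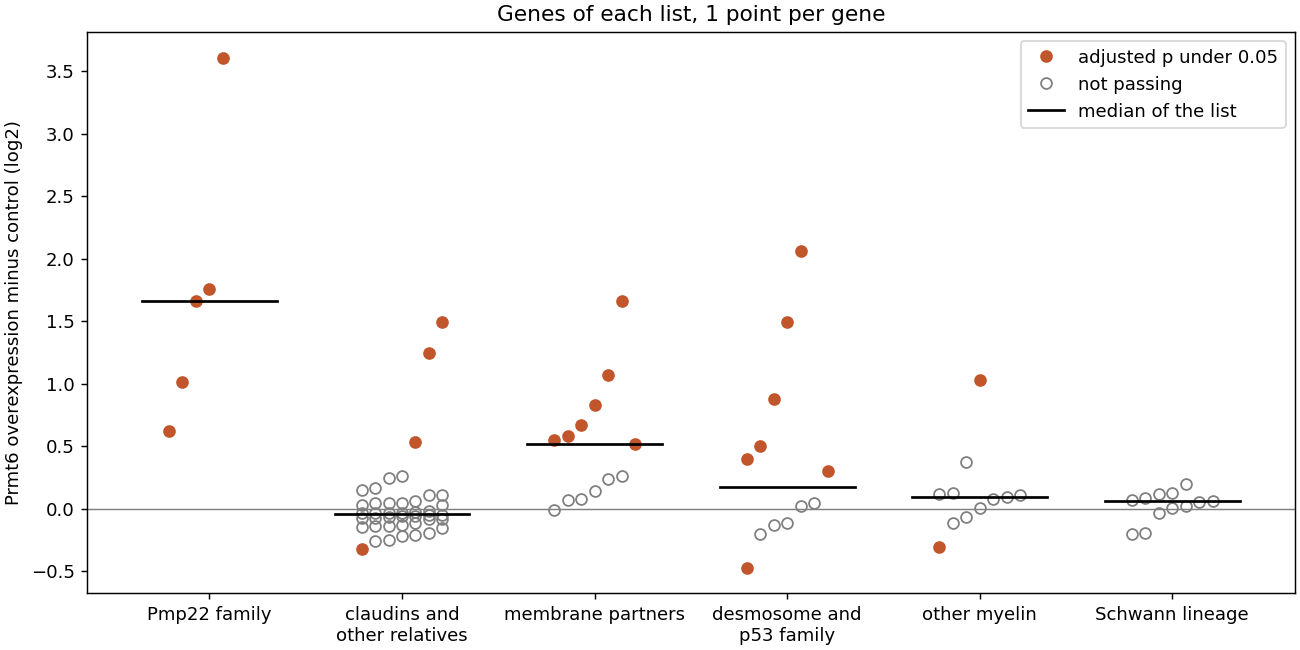
Difference between Prmt6 overexpression and control (log2, vertical axis) for each gene of the family and of 5 lists, with passing genes filled and the median of each list as a bar. The family median is 1.67, the median of the claudins and other relatives is -0.042, and 0 of 12 Schwann lineage genes pass.

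Other cell type markers moved in the same arrays. Over all genes, 7.05% were called higher and 3.25% lower. Of 10 simple epithelial markers, 5 rose and 5 did not pass, and their mean signal was 7.56 to 7.60 in control and 8.70 to 8.80 in overexpression. The keratins Krt18, Krt8, Krt19 and Krt7 rose by 3.22, 2.89, 2.61 and 2.34, and Cdh1 by 0.45, while Epcam was at -0.070 and Elf3 at -0.0067 without passing. Of 10 fibroblast markers, 5 rose and 5 did not pass, and their mean signal was 4.98 to 5.08 in control and 5.34 to 5.52 in overexpression. Of these rises, that of Dcn (0.44, limma adjusted p = 0.0366) ended with the replicate block (0.0849), with every probe set tested (0.0986) and when replicate 1 or 3 of either group was left out (0.0816 to 0.130). That of Pdgfrb (0.47) ended without control replicate 1 (0.0567). Col1a1 rose by 1.34, while the fibroblast genes Lum and Fap read 2.65 and 2.86 in overexpression, among the lowest 5% of genes. Fbln1 and Thy1, with mean signals at percentiles 76.1 and 50.8 of genes, were at -0.083 and 0.043 without passing. The mean signal of Dcn was at percentile 16.2. Of 8 endothelial markers, Eng and Tek fell and 6 did not pass. The part of such cells in the values of Pmp22 and its relatives was not tested.

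Markers of the labelled cell type were high in every array. Pou5f1, Nanog and Sox2 read between 10.36 and 11.41 in every array, above the 98th percentile of gene means, and the mean of 12 markers of undifferentiated ES cells was 9.72 to 9.76 in control and 9.70 to 9.71 in overexpression. Nanog, Sox2 and Tdgf1 fell by 0.34, 0.29 and 0.35, where 3.25% of all genes were called lower, and 9 of 12 did not pass. The median of the 12 was -0.0017 (log2). Klf2, Pou5f1 and Dppa4 were at 0.22, 0.19 and 0.10 without passing. Their overexpression arrays all lay above their control arrays, as in 17.0% of all genes. The calls of Nanog, Sox2 and Tdgf1 all ended with the replicate block. That of Nanog also ended without any 1 control array (limma adjusted p 0.0552 to 0.0765). That of Tdgf1 ended without any 1 control array or overexpression replicate 2 (0.0511 to 0.0864). That of Sox2 (limma adjusted p = 0.0485) ended without any 1 array (0.0549 to 0.163). It also ended with arrays centred on medians (0.111) and with every probe set tested (0.0981). Prmt6 itself read 6.84, 6.58 and 7.12 in control and 7.32, 7.40 and 7.33 in overexpression (1.42-fold, limma adjusted p = 0.0406), a call that ended without any 1 array except control replicate 3 (0.0788 to 0.119), with the replicate block (0.0615) and with every probe set tested (0.112). The position of its probe set relative to the cloned insert was not analysed here. Over all genes, 1405 were higher and 647 lower, so that 68.5% of calls were rises, and 80.4% with arrays centred on medians.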

How the data were processed

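The deposited values are log2 signals, 1 column per array, made with RMA (version not given in the sources used here), per the submitters' processing notes. RMA equalizes array distributions, which largely takes out any change common to most genes. Detection calls were not used here, and precision is limited by having 3 arrays per group. Of 35556 probe sets, 21789 had 1 gene symbol in the platform annotation of 2016, 1621 had several and 12146 were not named. Where a gene had several single-symbol probe sets, the one of highest mean was used (19938 genes).

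Groups were compared over all genes with limma 3.58.1 in R 4.3.3 (lmFit, eBayes, constant prior), two-sided, with Benjamini-Hochberg adjustment and a threshold of 0.05. The procedure was tested on simulated data with independent noise, in which a smaller share of genes was changed than was called in the arrays. There, 49.2% of changes of 0.5 (log2) and 90.8% of changes of 1 were recovered. False calls made up 3.60% of calls there, and these rates may differ in the arrays. A gene that did not pass may therefore still have changed. The members and lists were chosen with earlier results of these data known. Named genes are the members, the 5 nearest profiles of members changed by 1 or more (log2), up to 4 passing genes per list with the largest change, and 13 genes in any case (those without a single-symbol probe set are not analysed here). Further list members were named after their values were seen. Alternatives tried were leaving out 1 array at a time, a replicate block, a filter at the 30th percentile, rescaling, other probe set rules and another variance prior. Plots used matplotlib 3.10.9 (Python 3.11.15).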

Additional observations from a re-analysis of the deposited data

How the results depend on the processing

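The 5 members kept their direction and passed the threshold under all 13 alternatives. The alternatives refit the same 6 arrays and the family was known to move beforehand, so nothing further is read from these passes. The members' differences ranged from 3.47 to 3.75 for Pmp22, 1.74 to 1.81 for Emp1, 0.565 to 0.69 for Emp2, 1.635 to 1.71 for Emp3 and 0.96 to 1.06 for Perp (log2). Over all genes no pairing by replicate number was seen: deviations of same-numbered arrays correlated at -0.117 to -0.016. These correlations do not settle pairing for single genes. With the replicate block, Pmp22 was at 3.61 and the count of lower genes was 383 against 647. With 1 array left out, higher genes numbered 862 to 1232, lowest without control replicates 1 (862) and 3 (898), and lower genes 280 to 763, with 280, 321 and 297 without control replicates 1, 2 and 3 and 328 without overexpression replicate 2. Lower genes numbered 990 with dim genes left out and 1115 with a trended and robust variance prior; the cause was not tested. The other 51 named genes kept direction and call in 600 of 661 fits, lost the call in 55, gained it in 4 and changed sign in 2, those of Sox10 and Egr2 without overexpression replicate 3 (ranges with 1 array left out -0.028 to 0.25 and -0.047 to 0.078). Without detection calls, no background level bounds the dim genes, such as the 18 of 42 superfamily relatives under the 30th percentile.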
